A study of Homo sapiens with 12 samples.

Results

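The miR-15 and miR-16 family was followed in A549 cells, a human lung adenocarcinoma line with epithelial morphology, during the epithelial-to-mesenchymal transition (EMT) that the cytokine TGF-β induces. Small RNA was sequenced from untreated cells (0 h) and from cells treated with TGF-β for 24 h and 96 h, in 2 libraries for each of these 3 time points, and all 6 libraries came from the parental line with no genetic change. No untreated cells at 24 h or 96 h were analysed here, so TGF-β and time in culture cannot be told apart. The labels do not say whether the 2 libraries of a time point came from separate cultures, and p-values therefore measure only the spread between these libraries, which may be technical. The family comprised 9 mature miRNAs of the 2588 names in the count table, chosen by name: hsa-miR-15a-5p, hsa-miR-15b-5p, hsa-miR-16-5p, hsa-miR-195-5p, hsa-miR-497-5p, hsa-miR-424-5p and hsa-miR-503-5p, and the opposite strands hsa-miR-424-3p and hsa-miR-15b-3p, written without the species prefix from here on. All 9 had counts in every library and passed the expression filter, as did 491 miRNAs in all.

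A miRNA is cut from a hairpin, which yields a 5p and a 3p strand, and one of them is usually kept by an Argonaute protein as the guide. The guide pairs with messenger RNAs through its seed, bases 2 to 8, and lowers their translation and stability. Members of this family share a seed and are known for holding back the cell cycle through cyclin D1, cyclin E1 and CDK6 and for repressing the survival factor BCL2. The MIR15A and MIR16-1 hairpins are known from their deletion in chronic lymphocytic leukaemia, and MIR424 and MIR503 from the exit from the cell cycle during differentiation of monocytes and muscle.

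The mature sequences are shown because the shared seed is what makes these miRNAs a family. They are given 5′ to 3′ from RefSeq (table build GRCh38.p14), with the seed in capitals.
hsa-miR-15a-5p: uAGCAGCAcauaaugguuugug
hsa-miR-15b-5p: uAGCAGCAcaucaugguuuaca
hsa-miR-16-5p: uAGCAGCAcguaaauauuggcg
hsa-miR-195-5p: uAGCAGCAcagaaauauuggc
hsa-miR-497-5p: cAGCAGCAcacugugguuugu
hsa-miR-424-5p: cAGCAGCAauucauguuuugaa
hsa-miR-503-5p: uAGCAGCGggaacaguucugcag
hsa-miR-424-3p: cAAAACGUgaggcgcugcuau
hsa-miR-15b-3p: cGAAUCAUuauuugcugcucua

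The seed AGCAGCA was shared by 6 members, and miR-503-5p carried AGCAGCG in its place. Both 3p strands had seeds of their own. Outside the seed the members differed more. Over the bases that both have, miR-16-5p and miR-195-5p differed at 2 of 21, miR-15a-5p and miR-15b-5p at 4 of 22, and miR-424-5p and miR-503-5p at 10 of 22. The 7 strands with these seeds, all of them 5p strands, are called guide strands here.

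The hairpins lie in 4 pairs. By exact match of the mature sequences to GRCh37, MIR15A and MIR16-1 span chromosome 13 from 50623121 to 50623324 on the minus strand, where the annotation has an intron of DLEU2, a long non-coding RNA. MIR15B and MIR16-2 span chromosome 3 from 160122395 to 160122606 on the plus strand, in an intron of SMC4, which encodes a condensin subunit. MIR195 and MIR497 span chromosome 17 from 6920947 to 6921318 on the minus strand, within an exon of MIR497HG, another long non-coding RNA. MIR424 and MIR503 span the X chromosome from 133680361 to 133680731 on the minus strand, with MIR503 in an intron of MIR503HG. The mature miR-16-5p is the same from MIR16-1 and MIR16-2, so its counts cannot be assigned to either hairpin.

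Total counts on mature miRNAs ranged from 2335185 to 3214230 at 0 h and 24 h and were 5971197 and 4658823 at 96 h. Levels are CPM, counts relative to the library's total on a fixed scale, after TMM normalization, a scaling that holds most miRNAs level between libraries. The TMM factors were 1.17 and 1.36 at 0 h and 0.738 and 0.791 at 96 h, while miR-21-5p, the most abundant miRNA, took 52.4 to 56.1% of counts at 0 h and 63.8 to 65.5% at 96 h. The choice of scaling therefore moves every change between these time points: the median log2-fold change of the 491 tested miRNAs at 96 h relative to 0 h was −0.10 with TMM and −0.83 with total counts. Among markers of other cells, miR-223-3p and miR-150-5p of blood and miR-214-3p of fibroblasts had a count of 0 in every library. A count of 0 allows up to 3 counts, 0.681 to 1.12 CPM. Of the 6 blood markers, 4 had counts in some library, and the list summed to between 1.13 and 5.49 CPM. Among these, miR-142-3p had 12 and 7 counts in the untreated libraries, compared with 2 and 1 after 96 h. All 3 muscle markers had counts in some library, with sums from 0.271 to 1.83 CPM. The 8 epithelial markers each had counts in some library and summed to between 151 and 279 CPM. The 5 fibroblast markers summed to between 5.37 and 452 CPM, with 17 and 15 counts of miR-143-3p at 0 h and 1801 and 1634 at 96 h. Without miR-143-3p this list summed to between 0.895 and 9.76 CPM.

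Within the family, miR-16-5p was the most abundant member at every time point and ranked between 55 and 68 among all miRNAs of a library. Its level was 794 and 934 CPM at 0 h, 1125 and 753 CPM at 24 h, and 754 and 863 CPM at 96 h. The time points overlapped. Behind it at 0 h stood miR-15b-5p, miR-15a-5p, miR-503-5p, miR-424-3p and miR-424-5p, with means from 134 down to 92.5 CPM, and in this order the libraries of each overlapped with those of the next. Then came miR-15b-3p at 35.6 ± 17 CPM (SD, n = 2), miR-195-5p at 8.91 ± 0.357 CPM and miR-497-5p at 3.55 ± 0.882 CPM, each clear of its neighbours. At 96 h the order was miR-16-5p, miR-15b-5p, miR-424-3p, miR-424-5p, miR-503-5p, miR-15a-5p, miR-15b-3p, miR-195-5p and miR-497-5p, and no neighbours overlapped. The miR-195-5p and miR-497-5p pair therefore stayed at the bottom, with 20 to 35 counts of the first and 8 to 15 of the second per library, and miR-195-5p had 0.628 to 1.15% of the counts of miR-16-5p.

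**Figure D1:**
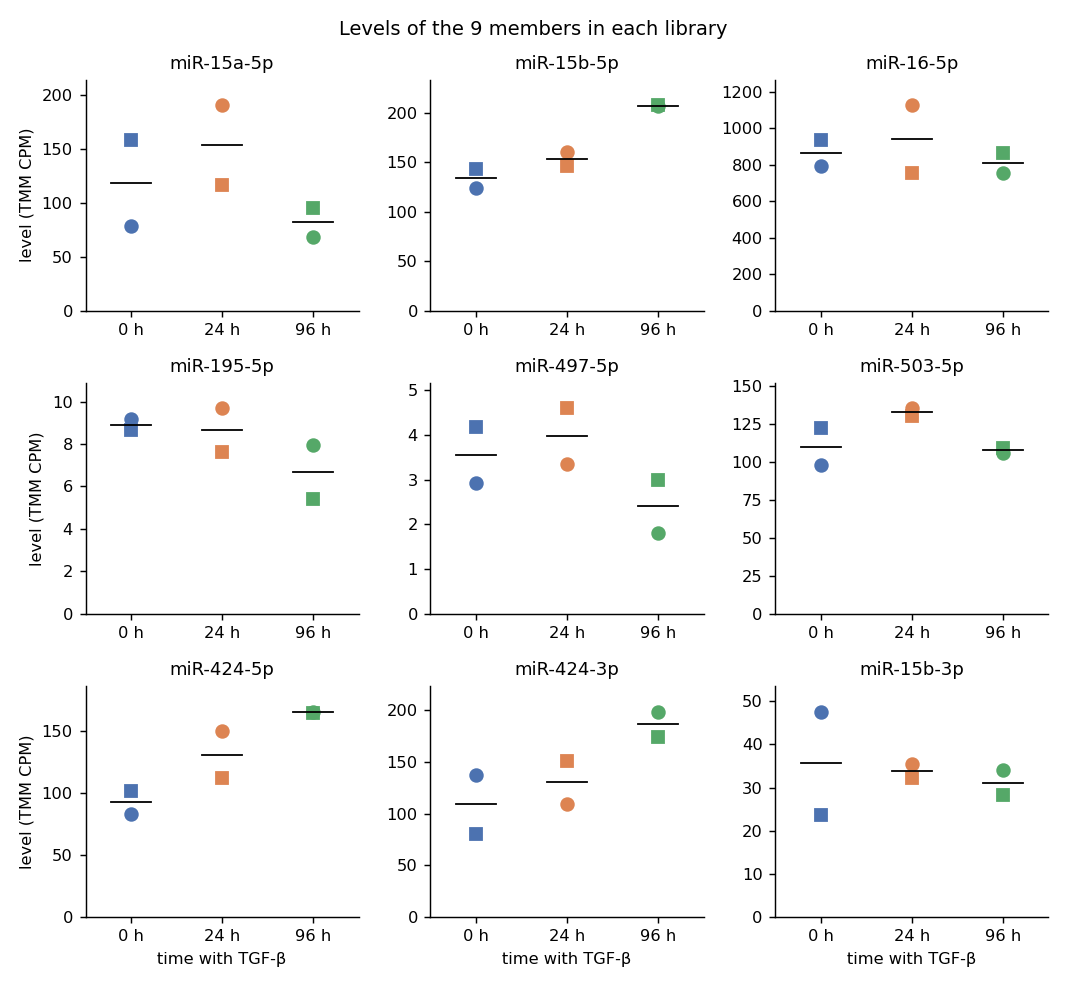
Level of each of the 9 members (y axis, TMM-normalized CPM, from 0) against time with TGF-β (x axis, hours); circles are replicate 1, squares replicate 2 and bars the mean of both. The 96 h libraries of miR-15b-5p, miR-424-5p and miR-424-3p lie above those of 0 h, while those of miR-16-5p, miR-503-5p and miR-15a-5p overlap with 0 h.

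The main comparison asks which members differ between the mesenchymal state at 96 h and untreated cells. At 96 h, with TMM scaling, 3 of the 9 members passed the test as higher than at 0 h, miR-424-5p, miR-424-3p and miR-15b-5p, each by less than 2-fold. The other 6 had log2-fold changes below 0, and 0 of them passed as lower with TMM. Total counts gave 0 members higher and 5 lower, as described further on. Because none of the 3 passed a log2-fold change of 1, 0 of 9 members met both thresholds of a call (a Benjamini-Hochberg adjusted p under 0.05 over all tested miRNAs in the quasi-likelihood test of edgeR, and a log2-fold change beyond 1 in either direction), against 25.9% of all tested miRNAs. By adjusted p alone 3 of 9 passed, against 44% of all tested miRNAs in either direction and 22.8% in the higher direction. The Wald test of DESeq2 also gave 0 calls and 3 members past its adjusted p alone, and 3 members had an unadjusted p under 0.05 in edgeR. For DESeq2 and for an unadjusted p, here and further on, the share of all tested miRNAs was not computed. The median log2-fold change of the members was −0.10, as was that of all tested miRNAs. Levels did not overlap between 0 h and 96 h for 4 of 9 members, against 71.7% of all tested miRNAs.

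Among the members of the X chromosome, miR-424-5p carries the family seed and had counts of 227 and 341 (0 h), 403 and 366 (24 h), and 731 and 606 (96 h). In CPM these are 83.2 and 102, then 150 and 112, then 166 and 164. Each time point was clear of the one before it. The rise at 96 h was 1.78-fold, a log2-fold change of 0.83 ± 0.19 SE (95% interval 0.41 to 1.26, edgeR adjusted p = 0.00647). Leaving out each library in turn gave 0.74 to 0.998, with adjusted p-values up to 0.0373. At 24 h the log2-fold change was 0.50 ± 0.19 SE and did not pass (adjusted p = 0.131).

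The opposite strand of the same hairpin, miR-424-3p, had counts of 376 and 269 (0 h), 294 and 493 (24 h), and 876 and 642 (96 h). Its level was 138 and 80.3 CPM at 0 h, 109 and 151 CPM at 24 h, and 199 and 174 CPM at 96 h. Only the libraries of 96 h stood clear of the others. The log2-fold change at 96 h was 0.78 ± 0.25 SE (95% interval 0.22 to 1.34, edgeR adjusted p = 0.0305). It depended on the 0 h libraries: leaving out 0 h replicate 1 gave 1.26, and leaving out 0 h replicate 2 gave 0.45 (adjusted p = 0.102). The adjusted p was also over the threshold without 24 h replicate 1 (0.0530), 96 h replicate 1 (0.145) or 96 h replicate 2 (0.0697), and when the filter was a mean level of 10 CPM or more (log2-fold change 0.64, adjusted p = 0.0735).

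The third member of the locus did not pass the test. miR-503-5p, whose hairpin is the neighbour of MIR424, had 98.2 and 122 CPM at 0 h, 135 and 131 CPM at 24 h, and 106 and 110 CPM at 96 h. The 96 h libraries lay within the range of 0 h, and those of 24 h were the highest. Its log2-fold change at 96 h was −0.03 ± 0.17 SE (95% interval −0.41 to 0.34, edgeR adjusted p = 0.882), and its sign depended on the scaling, the filter and the libraries used.

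Ratios of counts within a library do not depend on the scaling between libraries, so the pair was also compared in this way. There were 0.847 and 0.832 reads of miR-424-5p per read of miR-503-5p at 0 h, compared with 1.11 and 0.857 at 24 h and with 1.57 and 1.5 at 96 h. The ratio was highest in both libraries of 96 h, and the mean log2 ratio differed from 0 h by 0.87. Of all pairs of tested miRNAs, 71% had ratios that did not overlap between 0 h and 96 h. The ratio of miR-424-5p to miR-424-3p lay between 0.604 and 1.37 over the 6 libraries. It was 0.604 and 1.27 in the libraries of 0 h, which enclosed those of 96 h, and the difference in mean log2 ratio at 96 h was 0.02. Since 0.333 is the smallest two-sided p that an exact permutation of 2 and 2 libraries allows, the ratios are given without a test.

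Of the members on chromosome 3, miR-15b-5p rose and miR-15b-3p did not pass. miR-15b-5p had counts of 340 and 482 (0 h), 431 and 477 (24 h), and 912 and 766 (96 h). Its level was 125 and 144 CPM at 0 h, 160 and 146 CPM at 24 h, and 207 and 208 CPM at 96 h. The time points did not overlap, and the 96 h libraries were the highest. The log2-fold change at 96 h was 0.63 ± 0.16 SE (95% interval 0.28 to 0.97, edgeR adjusted p = 0.00962), or 1.54-fold. Without 96 h replicate 1 or 96 h replicate 2 its size was 0.66 in either case, with adjusted p-values of 0.0560 and 0.0524. The opposite strand, miR-15b-3p, had 47.6 and 23.6 CPM at 0 h, 35.4 and 32.1 CPM at 24 h, and 34.0 and 28.2 CPM at 96 h. The libraries of 0 h differed 2.02-fold and enclosed all others, and the log2-fold change at 96 h was −0.18 ± 0.30 SE (edgeR adjusted p = 0.656). Leaving out 0 h replicate 2 gave −0.60, and leaving out 0 h replicate 1 gave 0.45.

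The member closest to miR-15b-5p in sequence, miR-15a-5p on chromosome 13, had 78.4 and 158 CPM at 0 h, 190 and 117 CPM at 24 h, and 68.3 and 95.5 CPM at 96 h. The libraries of 96 h were lower than both of 24 h and overlapped with those of 0 h. The log2-fold change at 96 h relative to 0 h was −0.54 ± 0.33 SE (95% interval −1.28 to 0.20, edgeR adjusted p = 0.211). Here 1 library decided the value: it was −0.91 without 0 h replicate 1 (adjusted p = 0.00371) and 0.07 without 0 h replicate 2 (adjusted p = 0.866). The difference between the 0 h libraries was present in each of their sequencing runs, with 91.4 and 81.2 CPM of the run's own total in replicate 1 and 186 and 205 CPM in replicate 2. Per read of miR-15a-5p there were 1.59 and 0.908 reads of miR-15b-5p at 0 h, compared with 0.843 and 1.25 at 24 h and with 3.03 and 2.18 at 96 h. This ratio did not overlap between 0 h and 96 h, as was so for 71% of all pairs of tested miRNAs. The difference in mean log2 ratio was 1.10.

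**Figure D2:**
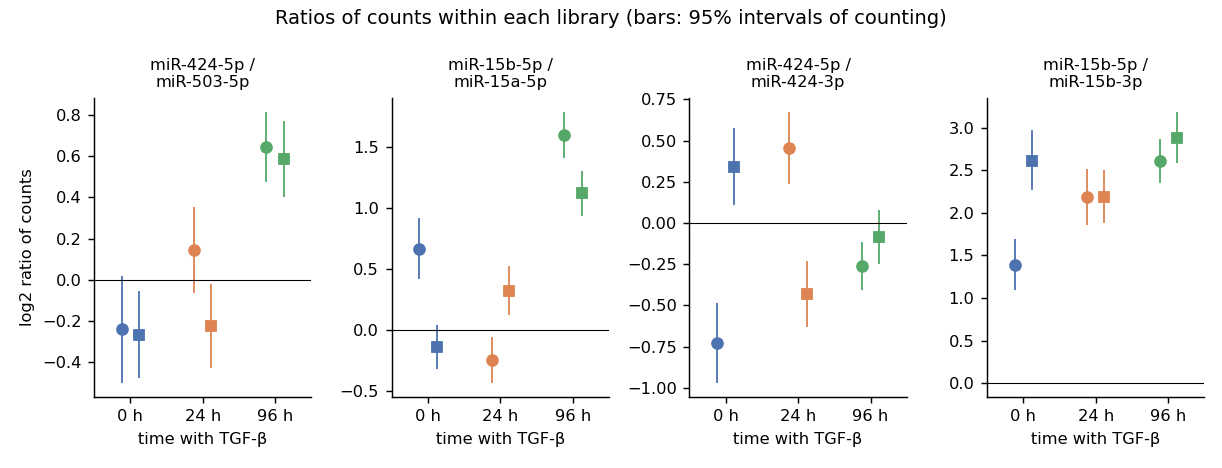
Log2 ratio of counts (y axis; each panel has its own range) for 4 pairs of members in each library against time with TGF-β (x axis); circles are replicate 1, squares replicate 2, and bars 95% intervals that cover counting error only. Both 96 h libraries lie above all others for miR-424-5p over miR-503-5p and for miR-15b-5p over miR-15a-5p, while the time points overlap for miR-424-5p over miR-424-3p.

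Neither miR-16-5p nor the members of chromosome 17 passed at 96 h. miR-16-5p had a log2-fold change of −0.10 ± 0.19 SE (95% interval −0.53 to 0.34, edgeR adjusted p = 0.712). miR-195-5p, with the sequence closest to miR-16-5p, had 9.16 and 8.65 CPM at 0 h, 9.68 and 7.65 CPM at 24 h, and 7.94 and 5.42 CPM at 96 h, and miR-497-5p stayed between 1.82 and 4.59 CPM. Their log2-fold changes were −0.40 and −0.60, with standard errors of 0.36 and 0.54. At such counts the 95% intervals reached from −1.19 to 0.39 and from −1.80 to 0.61, and a 2-fold fall, a log2-fold change of −1, lies within both.

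Under total counts different members passed, in the other direction. At 96 h relative to 0 h, 5 of 9 members were then lower by adjusted p alone (miR-15a-5p, miR-16-5p, miR-195-5p, miR-503-5p and miR-15b-3p), 0 were higher, and miR-15a-5p and miR-195-5p met both thresholds with log2-fold changes of −1.29 and −1.13, against 56.8% of all tested miRNAs lower past adjusted p and 39.1% past both. With TMM 112 miRNAs passed adjusted p higher and 104 lower, and with total counts 44 higher and 279 lower. The rises of miR-424-5p, miR-424-3p and miR-15b-5p became log2-fold changes of 0.10, 0.07 and −0.11, with adjusted p-values from 0.634 to 0.784. The members were also taken relative to the median of all tested miRNAs. A change of scaling shifts all miRNAs by about the same amount, so these values hardly move by construction. Their likeness under both scalings is therefore no test of the rises. By this measure miR-424-5p stood 0.93 above the median with either scaling, miR-424-3p 0.88 above it with TMM and 0.90 with total counts, miR-15b-5p 0.73 and 0.72 above, and miR-16-5p 0.00 with either. miR-15a-5p stood at −0.44 and −0.46, and miR-503-5p at 0.06 with either. Which of these scalings gives the change per cell was not tested, and in bulk RNA a change in the number of cells that express a miRNA and a change in its amount per cell cannot be told apart.

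**Figure D3:**
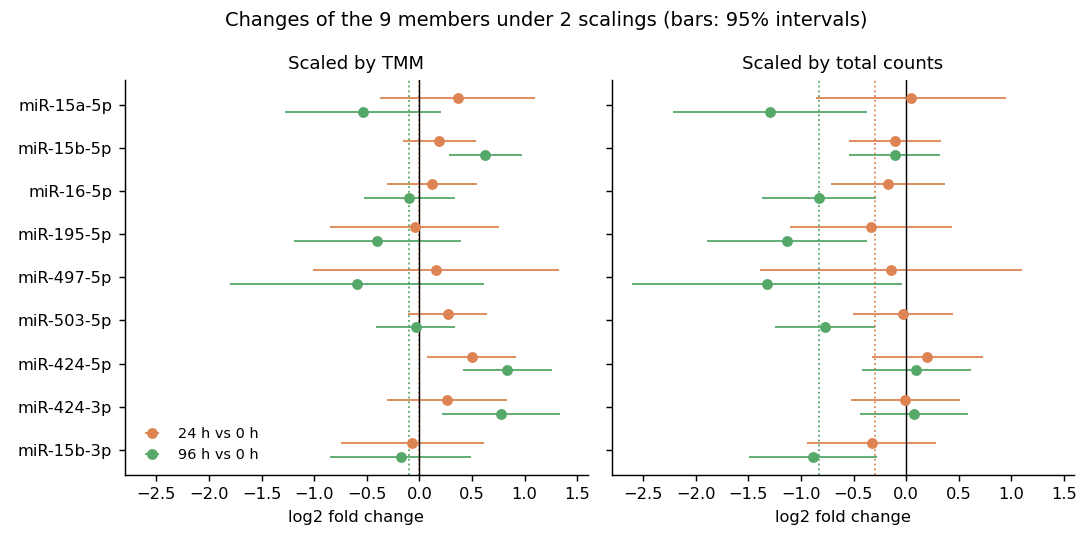
Log2-fold changes (x axis) of the 9 members at 24 h and 96 h relative to 0 h, scaled by TMM (left) and by total counts (right); points are edgeR estimates, bars 95% intervals, solid lines no change and dotted lines the median of the 491 tested miRNAs. From TMM to total counts the members shift to the left by about the same amount, and at 96 h their order is kept while some change sides of the solid line, as for miR-15b-5p at 96 h (0.63 and −0.11).

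At 24 h, 0 of 9 members were called relative to 0 h, against 3.46% of all tested miRNAs, and 0 passed adjusted p alone, against 7.13% (edgeR, and DESeq2 also gave 0 for both). Only 1 member, miR-424-5p, had an unadjusted p under 0.05. The members' log2-fold changes ran from −0.07 for miR-15b-3p to 0.50 for miR-424-5p, with a median of 0.19 against −0.0040 for all tested miRNAs. Levels did not overlap for 3 of 9 members, miR-15b-5p, miR-424-5p and miR-503-5p, against 57.8%. Either 0 h library could produce a member past adjusted p at this time point: without 0 h replicate 1 it was miR-424-3p (log2-fold change 0.74, adjusted p = 0.0232), and without 0 h replicate 2 it was miR-15a-5p (0.97, adjusted p = 0.0282).

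Between 24 h and 96 h, 0 of 9 members were called, against 5.91%, and 0 passed adjusted p alone, against 12.6% (edgeR, and DESeq2 also gave 0 for both). The members with an unadjusted p under 0.05 were 2, miR-15a-5p with a log2-fold change of −0.90 ± 0.33 SE (edgeR adjusted p = 0.0951) and miR-15b-5p with 0.44 ± 0.15 SE (edgeR adjusted p = 0.0821). Both, and miR-424-3p, passed adjusted p when either 0 h library was left out of the fit: miR-15a-5p with 0.00287 and 0.00404, miR-15b-5p with 0.0304 and 0.0340, and miR-424-3p with 0.0262 and 0.0307 (without replicate 1 and replicate 2). With total counts 1 member was called lower, miR-15a-5p (−1.34), against 11.8% of all tested miRNAs, and 2 were lower by adjusted p alone, the other being miR-503-5p (−0.74), against 25.1%. Levels did not overlap for 6 of 9 members with TMM, against 61.9% of all tested miRNAs. The titles of the second sequencing runs end differently at 24 h and 96 h, so this ending and the time point cannot be told apart. The 3 comparisons share libraries and are not independent of each other.

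The makeup of the guide strands was computed within each library as the share of each in the sum of the 7. miR-16-5p made up 65.1 ± 2.33% of guide reads at 0 h, 61.4 ± 2.92% at 24 h and 58.6 ± 1.45% at 96 h (mean ± SD, n = 2). The share of miR-424-5p was 6.95 ± 0.0574% at 0 h, 8.63 ± 0.254% at 24 h and 12 ± 0.923% at 96 h. That of miR-15b-5p was 10.1 ± 0.498%, 10.3 ± 1.73% and 15.1 ± 1.02%. miR-15a-5p made up 8.67 ± 2.95% at 0 h, 9.94 ± 1.09% at 24 h and 5.90 ± 0.976% at 96 h, and its libraries of 0 h and 96 h overlapped. miR-503-5p made up 8.28 ± 0.0384%, 8.96 ± 1.87% and 7.82 ± 0.367%. Shares of a fixed sum must fall for some members when others gain, and the mean share of miR-16-5p fell the most. miR-195-5p made up 0.678% at 0 h and 0.490% at 96 h, and miR-497-5p 0.265% and 0.172%. Log2 ratios between guide strands did not overlap between 0 h and 96 h for 13 of the 21 pairs, against 71% of all pairs of tested miRNAs.

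**Figure D4:**
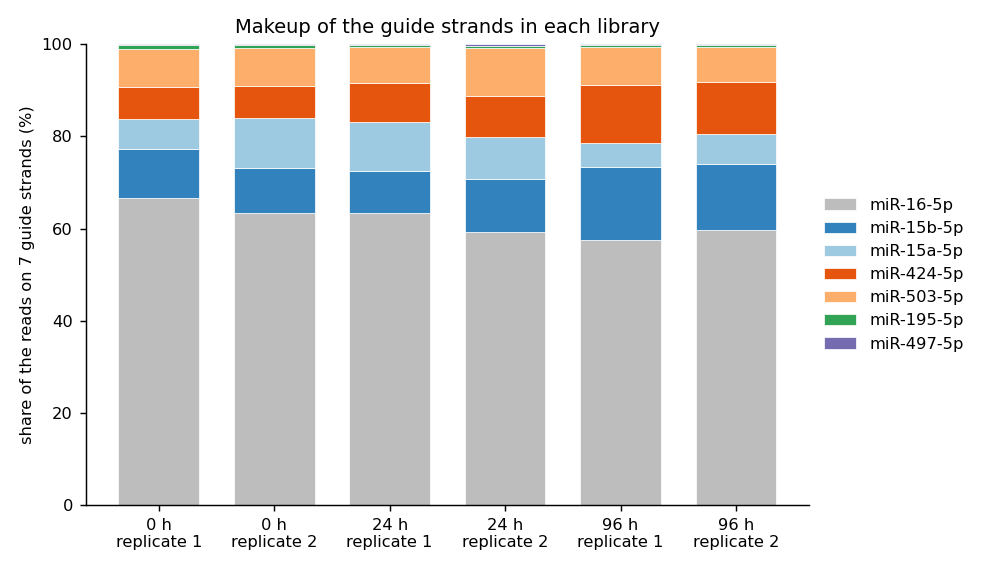
Share of each of 7 guide strands in their summed reads (y axis, percent, from 0 to 100) in each of the 6 libraries (x axis); the stack is ordered from miR-16-5p at the bottom to miR-497-5p at the top. The miR-424-5p and miR-15b-5p segments are wider in both 96 h libraries (12% and 15.1% on average) than at 0 h (6.95% and 10.1%).

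The guide strands together were a small part of all reads. They took 0.139 and 0.201% of counts on mature miRNAs at 0 h, compared with 0.187 and 0.129% at 24 h and with 0.0968 and 0.115% at 96 h. The 96 h libraries were the lowest, and their 95% Wilson intervals, which cover counting error only, were 0.0943 to 0.0993% and 0.112 to 0.118%. Without miR-21-5p in the denominator the share was 0.370 ± 0.0746% at 0 h, 0.371 ± 0.0884% at 24 h and 0.299 ± 0.0252% at 96 h (mean ± SD, n = 2). By this measure the libraries of 24 h and 96 h overlapped, and 0 h replicate 1 and 96 h replicate 2 were both at 0.317%. In TMM-normalized CPM the sum was 1332 ± 200.3 at 0 h, 1523 ± 356 at 24 h and 1380 ± 97.3 at 96 h (SD, n = 2). All time points overlapped in the last measure.

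The miRNAs that share a locus or a seed with the members were examined as a list of 17, of which 9 passed the expression filter. The X chromosome locus spans 6.51 kb from MIR450B at 133674224 to MIR424 at 133680731, and its other miRNAs were 7 of the list, of which 4 were tested. At 96 h relative to 0 h, 3 of the 4 were higher by adjusted p, against 22.8% of all tested miRNAs. miR-450b-5p had 106 and 95.2 CPM at 0 h, 148 and 139 CPM at 24 h, and 216 and 246 CPM at 96 h. It rose at each step without overlap. Of all tested miRNAs, levels did not overlap for 57.8% between 0 h and 24 h and 61.9% between 24 h and 96 h. The log2-fold change of miR-450b-5p at 96 h was 1.20 ± 0.16 SE (edgeR adjusted p = 0.000326). It was the 1 call among the 9 tested of the list, against 25.9% of all tested miRNAs. miR-542-3p had 127 and 124 CPM at 0 h, 148 and 145 CPM at 24 h, and 223 and 232 CPM at 96 h, with a log2-fold change of 0.85 ± 0.15 SE (edgeR adjusted p = 0.0013). miR-450a-5p had 108 and 70.1 CPM at 0 h, 70.7 and 95.7 CPM at 24 h, and 155 and 128 CPM at 96 h, with a log2-fold change of 0.67 (adjusted p = 0.0425). Without 0 h replicate 2 its value was 0.40, and its adjusted p reached 0.206 without 96 h replicate 1. The remaining tested neighbour, miR-450a-1-3p, had 1 to 11 counts in a library and a log2-fold change of −0.51 ± 0.97 SE (edgeR adjusted p = 0.7002). Its sign turned when 0 h replicate 2 (1.54) or 96 h replicate 1 (0.25) was left out. With total counts miR-450b-5p alone of these was higher by adjusted p (log2-fold change 0.48, adjusted p = 0.0363), against 8.96% of all tested miRNAs. At 96 h relative to 24 h, 2 of the 4 were higher by adjusted p with TMM, miR-450b-5p and miR-542-3p, against 8.96% of all tested miRNAs, and 0 with total counts.

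miR-503-5p was also compared with a neighbour within each library. There were 0.770 and 0.983 reads of miR-503-5p per read of miR-542-3p at 0 h, compared with 0.917 and 0.901 at 24 h and with 0.474 and 0.473 at 96 h. The 96 h libraries were below all others, with a mean log2 ratio 0.88 lower than at 0 h. Ratios of 71% of all pairs of tested miRNAs did not overlap between 0 h and 96 h. The ratio of miR-424-5p to miR-542-3p was between 0.652 and 1.02, and its mean log2 value at 96 h differed from 0 h by −0.01. MIR503 lies next to MIR424 on the chromosome, and MIR542 and the MIR450 hairpins lie further from both.

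**Figure D5:**
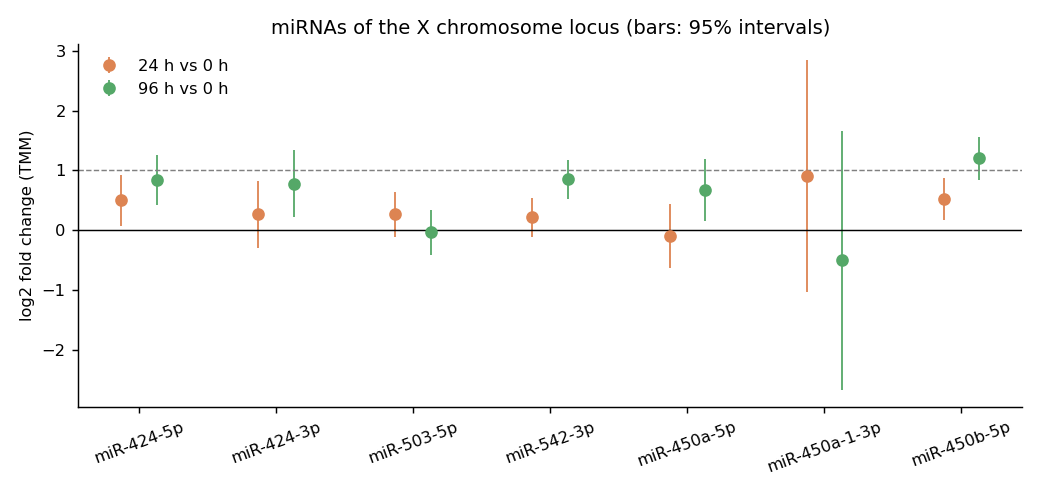
Log2-fold change (y axis, TMM) of the 7 tested members and neighbours of the X chromosome locus (x axis) at 24 h and 96 h relative to 0 h; points are edgeR estimates, bars 95% intervals and the dashed line the fold threshold of a call. At 96 h miR-503-5p lies at −0.03 and miR-450a-1-3p, with at most 11 counts in a library and a wide interval, at −0.51, while the other 5 lie between 0.67 and 1.20.

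Of the 6 other strands of the family's hairpins, 3 were tested and with TMM 0 passed adjusted p in any comparison, against 7.13% of all tested miRNAs at 24 h and 44% at 96 h relative to 0 h and 12.6% at 96 h relative to 24 h. At an unadjusted p under 0.05 in edgeR, 1 passed at 96 h relative to 0 h and to 24 h, miR-16-2-3p in both. At 96 h relative to 24 h this strand passed edgeR adjusted p with no filter (0.00788) and with only the time points compared (0.00867). Its log2-fold change at 24 h relative to 0 h was 0.10. Leaving out 0 h replicate 1 gave 0.89, and leaving out 0 h replicate 2 gave −0.39. The strand that tells the MIR16 hairpins apart is the 3p strand, since each makes its own. miR-16-2-3p of chromosome 3, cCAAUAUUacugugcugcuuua, had 111 and 46.5 CPM at 0 h, 70.7 and 96.4 CPM at 24 h, and 144 and 133 CPM at 96 h. Its log2-fold change at 96 h was 0.83 ± 0.33 SE (edgeR adjusted p = 0.0625), which became 1.62 when 0 h replicate 1 was left out and 0.34 when 0 h replicate 2 was left out. It passed with the Wald test of DESeq2 (adjusted p = 0.0197), with the size factors of DESeq2 in edgeR (0.0392) and with no filter (0.000417), and with total counts the log2-fold change was 0.14 (adjusted p = 0.703). Over all alternatives the adjusted p ran from 1.07e-05, without 0 h replicate 1, to 0.703. miR-16-1-3p of chromosome 13, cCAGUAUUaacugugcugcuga, had counts of 11 and 12 (0 h), 5 and 11 (24 h), and 10 and 6 (96 h), with a log2-fold change of −0.93 ± 0.56 SE (edgeR adjusted p = 0.195). With total counts it met both thresholds as lower (log2-fold change −1.66, edgeR adjusted p = 0.0279). Per read of miR-16-1-3p there were 27.5 and 13 reads of miR-16-2-3p at 0 h, compared with 38.0 and 28.6 at 24 h and with 63.6 and 81.8 at 96 h. The time points did not overlap, and the mean log2 ratio was 1.93 higher at 96 h than at 0 h. Of all pairs of tested miRNAs, 53.3% did not overlap between 0 h and 24 h, 71% between 0 h and 96 h, and 61.9% between 24 h and 96 h. The counts of miR-16-1-3p are small, and the 95% intervals of counting error ran from 7.23 to 25.7 for the lowest of these ratios and from 37.3 to 224 for the highest. miR-15a-3p, miR-497-3p and miR-503-3p had at most 7 counts in any library.

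The miRNAs with a related seed were 4, of which 2 were tested, and with TMM 0 passed adjusted p in any comparison. Of all tested miRNAs, 7.13% passed at 24 h and 44% at 96 h relative to 0 h, and 12.6% at 96 h relative to 24 h. The count was also 0 at an unadjusted p under 0.05 in edgeR and with DESeq2. miR-103a-3p and miR-107 begin with the letters AGCAGCA at base 1, where the family has them at base 2, as in miR-107: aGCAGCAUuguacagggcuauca. miR-103a-3p had 2646 to 3323 CPM and miR-107 399 to 629 CPM over the 6 libraries, with log2-fold changes of 0.26 and −0.06 at 96 h. With total counts both passed as lower at 96 h relative to 0 h (−0.47 and −0.80, edgeR adjusted p = 0.0199 and 0.0310), against 56.8% of all tested miRNAs. miR-6838-5p, which has the same seed as the family, and miR-646 had a count of 0 in every library.

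The miRNAs with the most similar time course were sought among 309 tested miRNAs outside these lists whose mean level was 10 CPM or more, by the distance between their pairs of log2-fold changes at 24 h and 96 h relative to 0 h. Closest to miR-16-5p (0.12 and −0.10) were miR-374b-3p, let-7a-3p and miR-24-3p, at distances of 0.0205, 0.0422 and 0.0517. Closest to miR-424-5p (0.50 and 0.83) were miR-181c-3p, let-7f-2-3p and miR-148a-3p, at distances of 0.0326, 0.0487 and 0.0706. These distances rest on 3 time points and are smaller than the standard errors of the members' own changes.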

How the data were processed

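The authors made the libraries with an Illumina kit for small RNA, used a HiSeq 2000, and assigned reads with miRDeep2 2.0.0.7; the submitters' processing notes name hg19. The deposited counts are raw reads for each mature miRNA and hairpin, 1 column for each of 6 libraries with its 2 runs summed (12 runs). The sample titles end in what reads as a date, the same for the first run of every library. For the second run, both 24 h libraries and 0 h replicate 2 share an ending, and both 96 h libraries and 0 h replicate 1 share another. Between 24 h and 96 h this ending and the time point cannot be told apart. They also deposited a normalized signal, in which each run was scaled to a fixed total and both added; it was used only to separate the runs, which succeeded in 5 libraries (all of the 745 to 843 entries checked in a library came out as whole reads within 0.011). In that file 1 column repeats another and was not used. For a name with several precursors (170 of 2588) the entry with the highest total was used. Since the reads carry no molecular identifiers, intervals and the floor of 3 counts cover counting error only.

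Counts were analysed with edgeR 4.0.16 in R 4.3.3: TMM, filterByExpr with a minimum count of 10, and a quasi-likelihood fit of time point over all 6 libraries, tested on simulated data first. Standard errors are the absolute log2-fold change over the square root of F. A miRNA was called at an adjusted p under 0.05 when its log2-fold change was beyond 1 in either direction, thresholds stated in the study's methods. Alternatives were DESeq2 1.42.0 and its size factors, total counts with and without miR-21-5p, other filters, sums over precursors, thinned libraries, fits of only the compared time points, a block for the replicate number, and leaving out each library. Members, lists, and tests were chosen with earlier results of these data known. The ratios between members were chosen after their values were seen. Named miRNAs are the 9 members, a list of 17 miRNAs sharing a locus or a seed, the 3 closest time courses to the most abundant and the most changed member, cell type markers, and miR-21-5p. Sequences came from RefSeq, which gave 25 of these 26 miRNAs, and hosts from GENCODE 44 on GRCh37. Figures used Python 3.11.15 and matplotlib 3.10.9.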

Additional observations from a re-analysis of the deposited data

Results flagged for a closer look

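The changes of 2 neighbours of MIR424 on the X chromosome differed between the time points by a test of the difference itself, 96 h against 24 h, in which 8.96% of all tested miRNAs were higher by adjusted p. The title ending of the second run also differs between these time points, and the 2 cannot be told apart. For miR-450b-5p the change at 96 h exceeded that at 24 h by a log2-fold change of 0.68 ± 0.16 SE and for miR-542-3p by 0.64 ± 0.15 SE, both with an adjusted p of 0.0230 (edgeR). Both were higher in 2 of 2 libraries of 96 h than in either library of 24 h. Levels did not overlap between these time points, in either direction, for 61.9% of all tested miRNAs. The adjusted p-values reached 0.189 for miR-450b-5p and 0.197 for miR-542-3p without 24 h replicate 1, and 0.286 and 0.354 with total counts.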

How the results depend on the processing

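Total counts in place of TMM moved the most. With them 2 members were called at 96 h relative to 0 h and 1 at 96 h relative to 24 h, where TMM gave 0, and 5 and 2 passed adjusted p alone, where TMM gave 3 and 0. Without miR-21-5p in the totals, 0 passed adjusted p alone at 96 h relative to 0 h. With no minimum fold change 3 members counted as called at 96 h relative to 0 h. Signs turned with total counts at 24 h for miR-15b-5p (−0.11), miR-16-5p (−0.17), miR-497-5p (−0.14), miR-424-3p (−0.0059) and miR-503-5p (−0.031), at 96 h relative to 0 h for miR-15b-5p (−0.11), and at 96 h relative to 24 h for miR-15b-5p (−0.0019) and miR-424-5p (−0.11); without miR-21-5p in the totals at 24 h for miR-16-5p (−0.065) and miR-497-5p (−0.031); and with thinned libraries at 24 h for miR-195-5p (0.16). The change of miR-503-5p at 96 h relative to 0 h turned to 0.035 with DESeq2 and with its size factors, 0.020 with no filter, and 0.0056 with only the time points compared. None of the values that turned had passed adjusted p, except that of miR-15b-5p at 96 h relative to 0 h. The cause was not tested in any of these. At 96 h relative to 24 h, members past adjusted p alone numbered 1 with no filter and 3 with only the time points compared. The share of all tested miRNAs was not computed for these settings or for totals without miR-21-5p. The mean share of the guide strands was 0.370, 0.371 and 0.299% of counts without miR-21-5p (0, 24 and 96 h) and 0.254, 0.233 and 0.156% with counts summed over precursors, which counts miR-16-5p reads under both of its hairpins.

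Leaving out each library in turn gave 0 to 1 members called at 96 h relative to 0 h, and 0 to 1, 1 to 4 and 0 to 3 members past adjusted p alone at 24 h relative to 0 h, 96 h relative to 0 h and 96 h relative to 24 h. A lone library of a time point was then assumed to vary like the others. The share of all tested miRNAs was not computed for any fit without a library, here or above. Log2-fold changes that turned sign ranged at 24 h relative to 0 h from −0.014 to 0.97 for miR-15a-5p, −0.16 to 0.33 for miR-16-5p, −0.18 to 0.073 for miR-195-5p, −0.15 to 0.46 for miR-497-5p, −0.067 to 0.74 for miR-424-3p and −0.49 to 0.55 for miR-15b-3p. At 96 h relative to 0 h they ranged from −0.91 to 0.068 for miR-15a-5p, −0.17 to 0.036 for miR-16-5p, −0.14 to 0.14 for miR-503-5p and −0.60 to 0.45 for miR-15b-3p, and at 96 h relative to 24 h from −0.39 to 0.11 for miR-16-5p and −0.20 to 0.10 for miR-15b-3p.

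With the replicate number as a block, 1 member passed adjusted p alone at 96 h relative to 24 h, miR-15a-5p (−0.95, edgeR adjusted p = 0.0341), and no other call of a member changed. The share of all tested miRNAs was not computed with this block. Of the other miRNAs described, miR-16-2-3p passed at 96 h relative to 0 h (0.87, edgeR adjusted p = 0.0205) and miR-450a-5p at 96 h relative to 24 h (0.74, edgeR adjusted p = 0.0421), where neither passed without the block. The deviations of same-numbered libraries from their time point's mean correlated at −0.30, 0.31 and −0.18 over 491 miRNAs (24 h with 0 h, 96 h with 0 h, 96 h with 24 h). With 2 libraries at each time point, these values of mixed sign cannot decide whether the numbers pair the libraries.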

Other observations

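Chosen after the values were seen, 3 ratios of 5p to 3p counts differed in the same direction between the 0 h libraries. The ratio with miR-16-5p is not that of 1 hairpin, since this strand comes from both MIR16-1 and MIR16-2. In 0 h replicate 1 there were 7.18 reads of miR-16-5p per read of miR-16-2-3p, 0.604 of miR-424-5p per read of miR-424-3p, and 2.62 of miR-15b-5p per read of miR-15b-3p. In 0 h replicate 2 the same ratios were 20.1, 1.27, and 6.10. At 24 h replicate 1 had 15.9, 1.37, and 4.54, and replicate 2 had 7.82, 0.742, and 4.54. At 96 h they were 5.23 and 6.48, 0.834 and 0.944, and 6.08 and 7.37. For all 3 ratios the difference between the 0 h libraries was larger than that between the means of 0 h and 96 h on the log2 scale, and its source was not tested.

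The summed level of the 8 epithelial markers was 151 and 153 CPM at 0 h, 187 and 214 CPM at 24 h, and 279 and 266 CPM at 96 h. The sum of miR-200a-3p and miR-200b-3p was 82.1 and 87.7 CPM at 0 h and 212 and 199 CPM at 96 h, while the other 6 markers summed to 68.5 and 65.0 CPM at 0 h and 67.2 and 67.3 CPM at 96 h. Among these, miR-141-3p had 9 and 13 counts at 0 h and 5 and 8 at 96 h. Their part in the members' changes was not tested.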
